A study of Mus musculus with 4 samples.

Results

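The scores Mo_Inmt_SC.Score1, Mo_Nr4a1_SC.Score1 and Mo_Nr4a1Inmt_SC.Score1 are 3 of the 6 gene-set scores that the authors deposited for every spot of a mouse lymph node, and they were chosen by name and followed over all 7271 spots. They are written below as Mo_Inmt_SC, Mo_Nr4a1_SC and Mo_Nr4a1Inmt_SC. The tissue was draining lymph node from mice immunized 14 days and gavaged 3 days before collection, and no strain, genotype, age, immunogen or gavaged agent is stated by the labels. Expression was recorded on a Visium slide, an array of barcoded spots that each capture RNA from a small area holding several cells, in 4 frozen sections (A to D) of 10 µm lying 50 µm apart. All 4 sections form 1 group with no untreated control, and their labels share 1 sample ID stem, JLB6J8116, which is not explained either. The section names deposited with the spots all end in eYFP, and what this refers to is not stated. The number of animals is not stated by the labels, so every SD below measures how these sections differ, a spread that may be technical. Agreement between the sections, and any test over them, may likewise reflect 1 animal.

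Each score is read here as a summary of the expression of a list of genes in a spot, and how it was computed is not stated. The names point to stromal cells, the non-blood cells that build the scaffold of the node, and published single-cell maps of mouse lymph node stroma use Inmt and Nr4a1 to name subsets. Inmt encodes indolethylamine N-methyltransferase, and Nr4a1 an immediate-early nuclear receptor. In lymph nodes, stromal cells of the medullary cords are known to surround plasma cells and to supply factors that keep them alive, T zone stroma guides T cells and dendritic cells, and follicular stroma holds the germinal centres. The labels and files do not state the gene lists behind the scores or whether these share genes. The labelled cell type could therefore not be checked against marker genes, and the scores are called by their names.

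Sections A to D had 1650, 1876, 1858 and 1887 spots. Total counts of UMIs (unique molecular identifiers, which mark single captured transcripts) ran from 8016778 to 20518149 per section. Median UMIs per spot were 7726.5, 10528, 3677.5 and 3836, so C and D were the shallow sections. Each section held 2 tissue pieces. The authors' 8 region names were used: Medulla (2130 spots), T zone (1834), B zone (1294), DZ (539, read as the germinal centre dark zone), LZ (414, the light zone), and GC_B Border (667), GC_Medulla Border (235) and GC_T Border (158), where germinal centres meet their surroundings. The labels do not state how regions were named. If they were named from expression in the same spots, the scores' genes may have entered that step. Score levels by region are therefore a description with no test.

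All 3 scores were highest in Medulla and lowest in the germinal centre zones, in every section. Mo_Inmt_SC averaged -0.000686, 0.00210, -0.00417 and -0.00511 over the Medulla spots of sections A to D, against -0.0717, -0.0698, -0.0632 and -0.0598 over DZ spots. Mo_Nr4a1_SC averaged 0.0248, 0.0280, 0.0139 and 0.0120 in Medulla and -0.0261, -0.0247, -0.0213 and -0.0194 in DZ. Mo_Nr4a1Inmt_SC averaged -0.00905, -0.00467, -0.0135 and -0.0164 in Medulla and -0.0732, -0.0723, -0.0685 and -0.0641 in DZ. The Medulla and DZ means of the sections did not overlap for any of the 3 scores, and the Medulla level of each was lower in the shallow sections C and D than in A and B. The gap from Medulla to DZ was 0.0641 ± 0.00863 (SD, n = 4) for Mo_Inmt_SC, 0.0426 ± 0.0109 for Mo_Nr4a1_SC and 0.0586 ± 0.00903 for Mo_Nr4a1Inmt_SC. The excess of Medulla over all other spots of the section was 0.0431 ± 0.00678, 0.0331 ± 0.00878 and 0.0369 ± 0.00699 in that order. Depth differed between regions, so each score was also replaced by its residual from a linear fit on log10 UMIs. This excess was then smaller, at 0.0270, 0.0236 and 0.0240, and above 0 in 4 of 4 sections.

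The zero and the scale of a score are not stated and may depend on its gene list. The scores were therefore compared with each other in SD units, that is, after subtracting the section's mean and dividing by the SD over all spots of the section. On this scale the Medulla stood 0.993 ± 0.170 above the section mean for Mo_Inmt_SC, 0.969 ± 0.178 for Mo_Nr4a1Inmt_SC and 0.804 ± 0.241 for Mo_Nr4a1_SC. Mo_Nr4a1_SC was below Mo_Inmt_SC there in 4 of 4 sections, by 0.189 ± 0.0715 SD units, a value of -0.0950 on residuals of log10 UMIs. The larger separation lay in the germinal centres. DZ stood at -1.09 ± 0.102 for Mo_Inmt_SC and -1.20 ± 0.0989 for Mo_Nr4a1Inmt_SC but at -0.649 ± 0.143 for Mo_Nr4a1_SC. The difference of Mo_Nr4a1_SC minus Mo_Inmt_SC was 0.442 ± 0.0647 in DZ and 0.472 ± 0.113 in LZ, above 0 in every section, and on residuals of log10 UMIs it was 0.368 in DZ. The germinal centres were thus the low point of all 3 scores, but in SD units a shallower one for Mo_Nr4a1_SC. This pattern was not particular to the 3 scores. The deposited score Mo_CD34_SC stood at 0.894 ± 0.144 in Medulla, -1.30 ± 0.111 in DZ and -1.42 ± 0.0850 in LZ. These units also depend on the spread within regions. For Mo_Nr4a1_SC the SD over spots was 0.0286 in Medulla and 0.0293 over the whole section. For Mo_Inmt_SC it was 0.0248 and 0.0307, and for Mo_Nr4a1Inmt_SC 0.0219 and 0.0269. The part of this spread in the shallower low point was not tested.

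**Figure D1:**
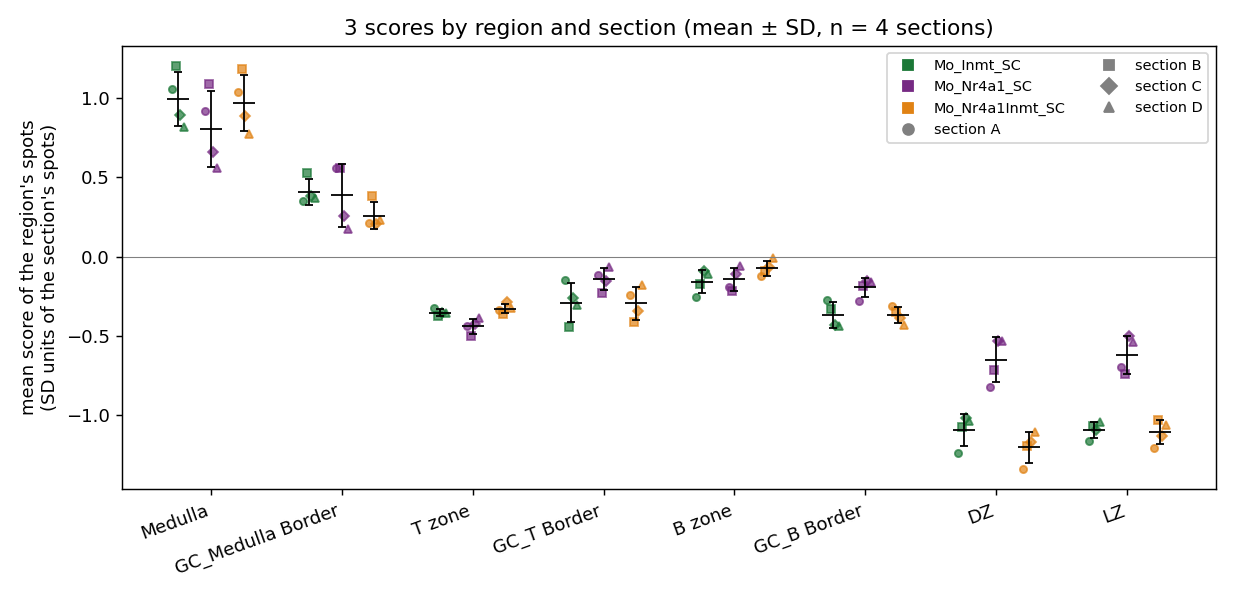
Mean of each score over the spots of 8 regions, in SD units of the section's spots (vertical axis), with 1 point per section and bars for mean ± SD over 4 sections. Medulla is highest and DZ and LZ lowest for all 3 scores, while Mo_Nr4a1_SC reaches only -0.649 in DZ against -1.09 for Mo_Inmt_SC and -1.20 for Mo_Nr4a1Inmt_SC.

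The order of the regions between these ends also parted the scores. For Mo_Inmt_SC the order was Medulla, GC_Medulla Border (-0.0200 ± 0.00182), B zone (-0.0374 ± 0.00457), GC_T Border (-0.0415 ± 0.00564), T zone (-0.0434 ± 0.00326), GC_B Border (-0.0439 ± 0.00223), then DZ and LZ. The steps from Medulla to GC_Medulla Border, from there to B zone, and from GC_B Border to DZ had 1 direction in 4 of 4 sections. The other neighbours in this order did not: B zone over GC_T Border held in 3 of 4 sections, GC_T Border over T zone in 3 of 4, T zone over GC_B Border in 2 of 4, and DZ over LZ in 2 of 4. Mo_Nr4a1Inmt_SC had the same order of means down to GC_B Border. There B zone over GC_T Border held in 4 of 4 sections, but GC_T Border over T zone and T zone over GC_B Border in 2 of 4 each, so GC_T Border, T zone and GC_B Border were not ordered. LZ stood above DZ by 0.00261 ± 0.00181 in 4 of 4 sections for this score.

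In Mo_Nr4a1_SC the T zone ranked lower, at -0.0167 ± 0.00197, below GC_T Border (-0.00797 ± 0.00269), B zone (-0.00810 ± 0.00190) and GC_B Border (-0.00956 ± 0.000814). The T zone was below GC_B Border by 0.00715 ± 0.00207 in 4 of 4 sections and above LZ by 0.00530 ± 0.00255 in 4 of 4. GC_T Border over B zone held in 1 of 4 sections and B zone over GC_B Border in 3 of 4, so those 3 regions were not ordered. Expressed as the percent of the way from the Medulla level to the DZ level, the T zone lay at 77.8, 88.3, 91.2 and 86.7% in sections A to D for Mo_Nr4a1_SC. It lay at 60.3, 69.3, 65.2 and 63.5% for Mo_Inmt_SC, and at 57.8, 65.0, 57.2 and 58.4% for Mo_Nr4a1Inmt_SC. Mo_Nr4a1_SC in the T zone was thus nearest its germinal centre level in all 4 sections, by 21.5 ± 3.87 percentage points over Mo_Inmt_SC. In the B zone the same difference was 9.47 ± 3.46 points, again in 4 of 4 sections, and in GC_Medulla Border it was 1.98 ± 9.29 points, with 2 sections on each side of 0.

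The borders of the germinal centres separated the scores too. GC_T Border exceeded T zone in Mo_Nr4a1_SC by 0.00939, 0.00809, 0.00814 and 0.00933 in sections A to D, a mean of 0.00874 ± 0.000719. The same difference was 0.00193 ± 0.00320 in Mo_Inmt_SC (above 0 in 3 of 4 sections) and 0.000837 ± 0.00265 in Mo_Nr4a1Inmt_SC (2 of 4). On the side of the follicle the other two scores had the common direction, and GC_B Border minus B zone was -0.00644 ± 0.00464 in Mo_Inmt_SC and -0.00790 ± 0.00229 in Mo_Nr4a1Inmt_SC, each in 4 of 4 sections. For Mo_Nr4a1_SC that difference was -0.00146 ± 0.00177, below 0 in 3 of 4 sections. Next to the medulla all 3 scores were lower in the border than in Medulla itself, with differences of -0.0180 ± 0.00419, -0.0122 ± 0.00222 and -0.0193 ± 0.00416 for Mo_Inmt_SC, Mo_Nr4a1_SC and Mo_Nr4a1Inmt_SC. GC_T Border held only 31 to 51 spots per section and GC_Medulla Border 31 to 81, so these means rest on fewer spots than the others.

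T zone spots that touched a Medulla spot were higher than T zone spots 5 or more steps away from Medulla, where a step is the distance between neighbouring spots of the hexagonal array. Mo_Inmt_SC was -0.0314 ± 0.00403 in touching spots and -0.0505 ± 0.00401 in the distant ones, a difference of 0.0191 ± 0.00623. The differences were 0.0165 ± 0.0103 for Mo_Nr4a1_SC and 0.0155 ± 0.00507 for Mo_Nr4a1Inmt_SC, and all 3 were above 0 in 4 of 4 sections. In the B zone the same comparison gave 0.00892 ± 0.00270, 0.00235 ± 0.00538 and 0.00455 ± 0.00332, with Mo_Nr4a1_SC above 0 in 3 of 4 sections and the other two in 4 of 4. The level at the T zone margin was thus between those of the T zone and the Medulla. A touching spot can hold cells of both regions, and the part of such mixed spots in these differences was not tested.

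**Figure D2:**
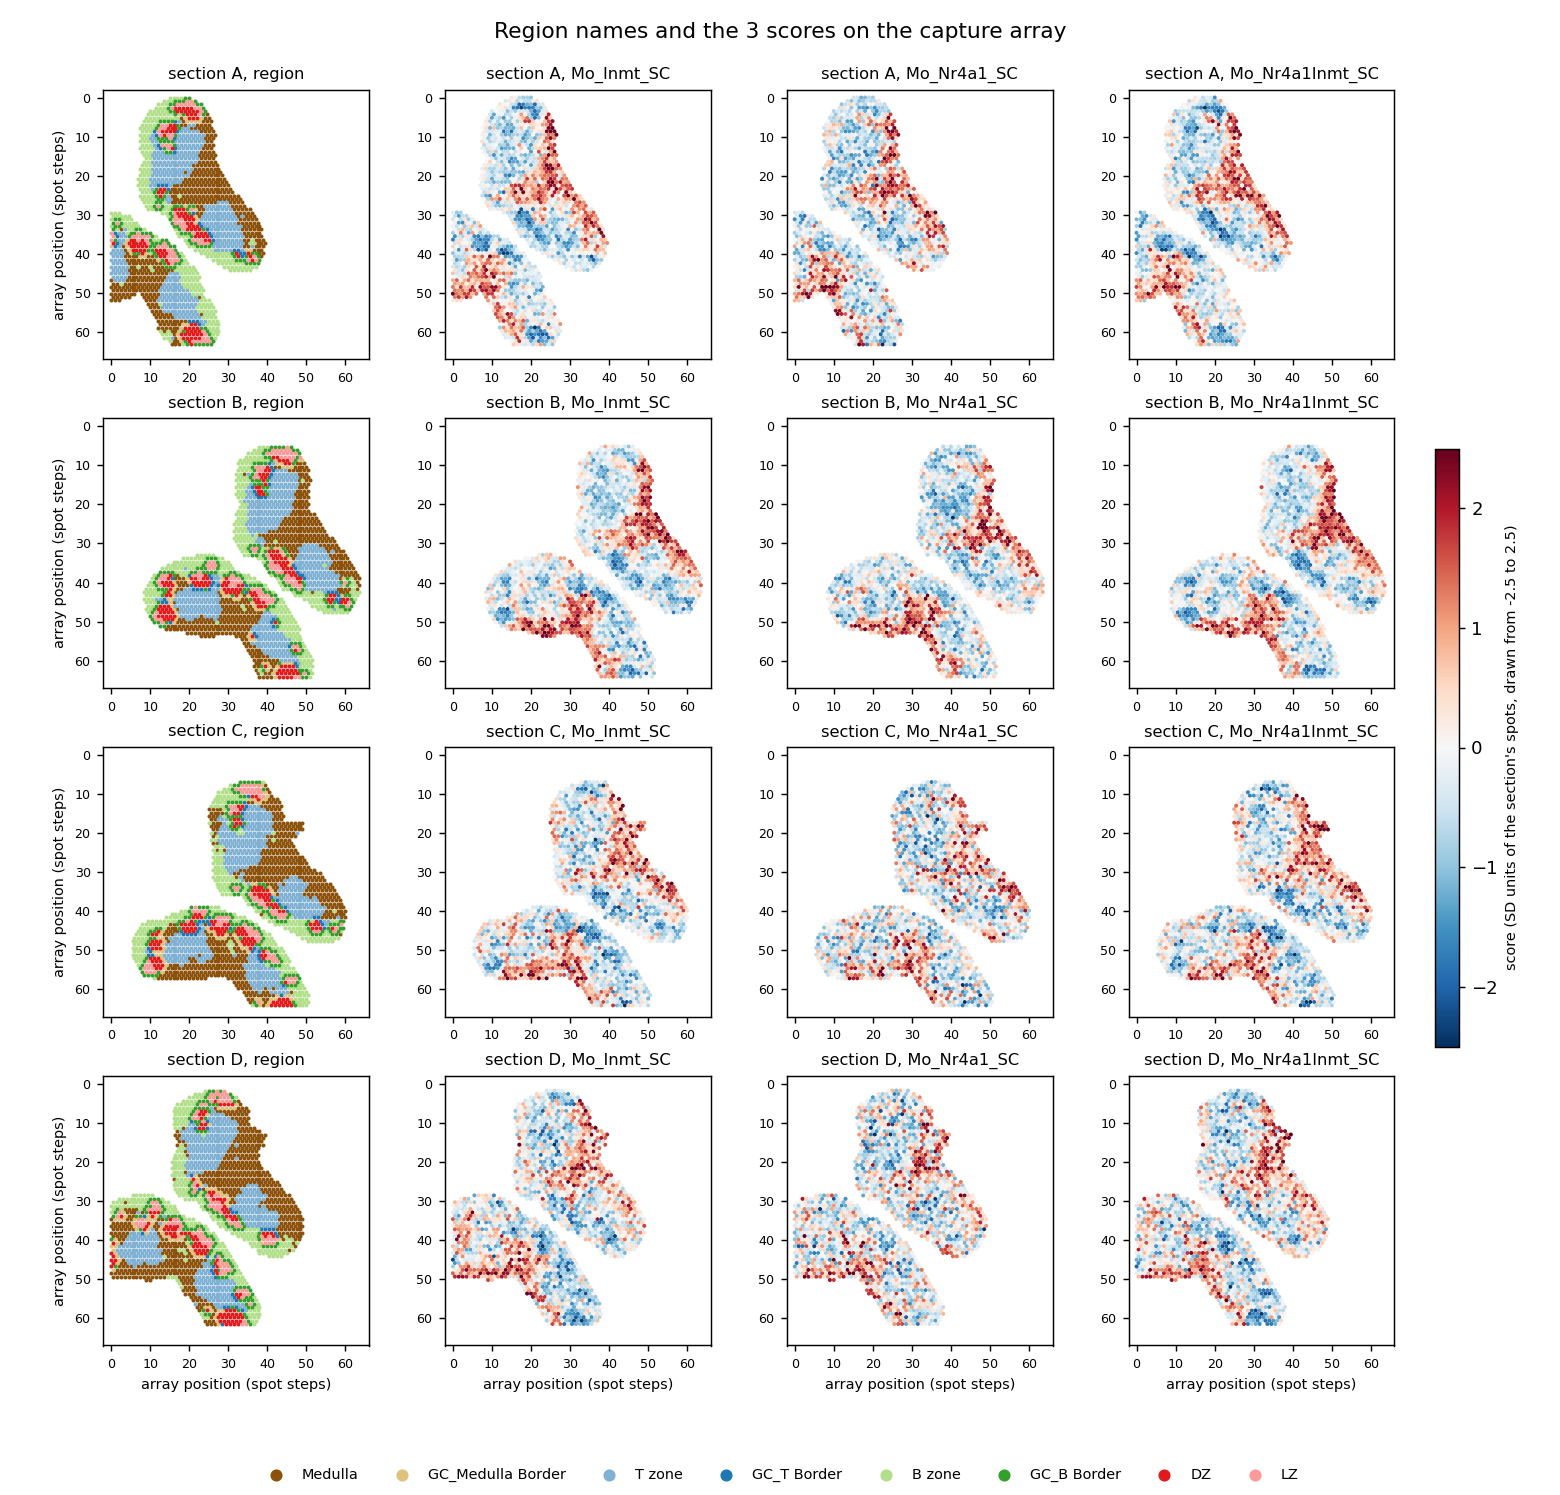
Region names (left column) and the 3 scores on the capture array of sections A to D, with both axes in spot steps and colour giving the score in SD units of the section's spots, drawn from -2.5 to 2.5. High spots of all 3 scores follow the Medulla, and low patches lie over DZ and LZ, more sharply in the Mo_Inmt_SC and Mo_Nr4a1Inmt_SC columns than in the Mo_Nr4a1_SC column.

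The highest 10% of spots in each section (165 to 189 spots) lay mostly in Medulla, which held 29.3% of all spots. Medulla held 89.5% ± 4.91 of the highest 10% for Mo_Inmt_SC, 89.9% ± 6.35 for Mo_Nr4a1Inmt_SC and 82.5% ± 7.49 for Mo_Nr4a1_SC. The spots were partly the same. Sets of 10% of spots drawn independently would share about 10%, and more where both lie mostly in Medulla. Of the highest 10% for Mo_Nr4a1_SC, 52.1, 50.5, 39.2 and 37.6% in sections A to D were also in the highest 10% for Mo_Inmt_SC. Mo_Nr4a1Inmt_SC shared 56.9% ± 7.42 with Mo_Inmt_SC and 52.8% ± 8.88 with Mo_Nr4a1_SC, and 35.4% ± 7.93 were in the highest 10% of all 3. Sharing was lower in the shallow sections C and D for every pair.

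Across all spots of a section, Spearman's rho between Mo_Nr4a1_SC and Mo_Inmt_SC was 0.641, 0.685, 0.487 and 0.463 in sections A to D, lower where depth was lower. Within regions it was 0.394 ± 0.0182 in Medulla, 0.439 ± 0.0789 in DZ, 0.358 ± 0.112 in T zone, 0.241 ± 0.129 in LZ and 0.187 ± 0.0184 in B zone. The relation between these scores was thus weaker inside most regions than across the whole section. Mo_Nr4a1Inmt_SC was related to both, at 0.604 ± 0.0449 with Mo_Inmt_SC and 0.542 ± 0.0169 with Mo_Nr4a1_SC inside Medulla. A linear fit on the other two scores gave 71.0% ± 8.40 of its variance over all spots of a section and 50.6% ± 4.82 inside Medulla. These are descriptions over spots that share a library, a depth range and possibly genes of the score lists.

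The score pc_markers, taken to follow plasma cell genes from its name and the series' title, was related to the 3 scores by Spearman's partial rho within each region and section, with log10 UMIs per spot held. Spots of a section are not independent, so no p-value is given. In Medulla the partial rho was 0.2496, 0.141, 0.228 and 0.335 for Mo_Inmt_SC in sections A to D. For Mo_Nr4a1_SC it was 0.237, 0.276, 0.304 and 0.313, and for Mo_Nr4a1Inmt_SC 0.159, 0.196, 0.154 and 0.182. Every value was above 0 and weak, and Mo_Nr4a1Inmt_SC was below Mo_Nr4a1_SC in 4 of 4 sections, by 0.110 ± 0.0364. Mo_Nr4a1_SC and Mo_Inmt_SC were not separated, with a difference of 0.0440 ± 0.0750 and 2 sections on each side of 0. With the other of these scores also held, the values were 0.211 ± 0.0390 for Mo_Nr4a1_SC and 0.144 ± 0.0881 for Mo_Inmt_SC.

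The Medulla relation moved with the ribosomal share of the counts. Given log10 UMIs, the percent of ribosomal counts in Medulla spots had a partial rho of -0.710 ± 0.0597 with pc_markers. It was -0.361 ± 0.0240 with Mo_Inmt_SC, -0.385 ± 0.0165 with Mo_Nr4a1_SC and -0.356 ± 0.0240 with Mo_Nr4a1Inmt_SC. With the percent of ribosomal counts also held, an alternative added after the values were seen, the partial rho with pc_markers was -0.0326 ± 0.128 for Mo_Inmt_SC and 0.0120 ± 0.0567 for Mo_Nr4a1_SC. For Mo_Nr4a1Inmt_SC it was -0.127 ± 0.0507, below 0 in 4 of 4 sections. Medulla spots rich in ribosomal counts were thus poor in all 4 scores, and no positive relation of the 3 scores to pc_markers was left once that share was held. Both the shares of cell types in a spot and RNA content enter the ribosomal percent, and they cannot be told apart here.

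DZ differed from Medulla in this respect. The partial rho with pc_markers given log10 UMIs was 0.611, 0.684, 0.475 and 0.337 for Mo_Inmt_SC in sections A to D, and 0.430, 0.665, 0.481 and 0.332 for Mo_Nr4a1Inmt_SC. For Mo_Nr4a1_SC it was 0.197, 0.479, 0.321 and 0.161, lower than for Mo_Inmt_SC in 4 of 4 sections by 0.237 ± 0.119. The 3 scores were thus ordered differently than in Medulla, where Mo_Nr4a1_SC was not the lowest. With the percent of ribosomal counts also held, the DZ values were 0.514 ± 0.139 for Mo_Inmt_SC, 0.271 ± 0.153 for Mo_Nr4a1_SC and 0.455 ± 0.148 for Mo_Nr4a1Inmt_SC, and with Mo_Inmt_SC held Mo_Nr4a1_SC was at 0.114 ± 0.126. When each DZ spot was given the mean score of its neighbouring DZ spots in place of its own, the values were 0.274 ± 0.155, 0.0173 ± 0.152 and 0.134 ± 0.186. Taken over neighbouring spots, Mo_Nr4a1_SC thus had no common direction over the sections, with 2 on each side of 0, while Mo_Inmt_SC was above 0 in 4 of 4. Holding Mo_CD34_SC, another of the 6 deposited scores, took the DZ values of the spots themselves to 0.193 ± 0.141 for Mo_Inmt_SC and 0.0774 ± 0.116 for Mo_Nr4a1_SC, each above 0 in 3 of 4 sections. For Mo_Nr4a1Inmt_SC it gave 0.110 ± 0.0940, above 0 in 4 of 4. The DZ values of all 3 scores were thus smaller on average with Mo_CD34_SC held. Given log10 UMIs, Mo_CD34_SC itself had a higher partial rho with pc_markers in DZ than Mo_Inmt_SC and Mo_Nr4a1_SC. The difference was -0.192 ± 0.136 for Mo_Inmt_SC minus Mo_CD34_SC and -0.430 ± 0.129 for Mo_Nr4a1_SC minus Mo_CD34_SC, each below 0 in 4 of 4 sections. Inside DZ the 3 scores fell as Mo_GC_vs_Mem, a further deposited score, rose. Spearman's rho was -0.671 ± 0.0308 for Mo_Inmt_SC, -0.458 ± 0.112 for Mo_Nr4a1_SC and -0.697 ± 0.0504 for Mo_Nr4a1Inmt_SC, with nothing held. In Medulla it was -0.167, -0.0644 and -0.142. A DZ spot can hold cells of a neighbouring region too, and the part of such mixed spots in the DZ values was not tested.

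The other regions gave weaker or less even values. In T zone the partial rho given log10 UMIs was 0.188 ± 0.0845 for Mo_Inmt_SC, 0.148 ± 0.0591 for Mo_Nr4a1_SC and 0.169 ± 0.0837 for Mo_Nr4a1Inmt_SC. In GC_T Border it was 0.337 ± 0.0991, 0.302 ± 0.185 and 0.323 ± 0.154, and in B zone 0.144 ± 0.0499, 0.117 ± 0.0626 and 0.1001 ± 0.0571. These were above 0 in 4 of 4 sections. With percent ribosomal also held, the T zone values were 0.0855 ± 0.0165, 0.0308 ± 0.0392 and 0.0586 ± 0.0357. In GC_Medulla Border, which has the highest pc_markers level of the 8 regions (0.308 ± 0.0608), the values for Mo_Inmt_SC were 0.396, -0.161, 0.0507 and 0.140, and section B ran against the rest. Mo_Nr4a1Inmt_SC gave 0.2004, -0.0938, 0.148 and 0.180 there, again with section B apart. Mo_Nr4a1_SC was above 0 in 4 of 4 sections, at 0.128, 0.327, 0.0948 and 0.383. LZ gave 0.178 ± 0.0761 for Mo_Inmt_SC and 0.0596 ± 0.0972 for Mo_Nr4a1_SC, whose sections did not share a direction. GC_B Border gave 0.145 ± 0.101, 0.0603 ± 0.0751 and 0.119 ± 0.0733.

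**Figure D3:**
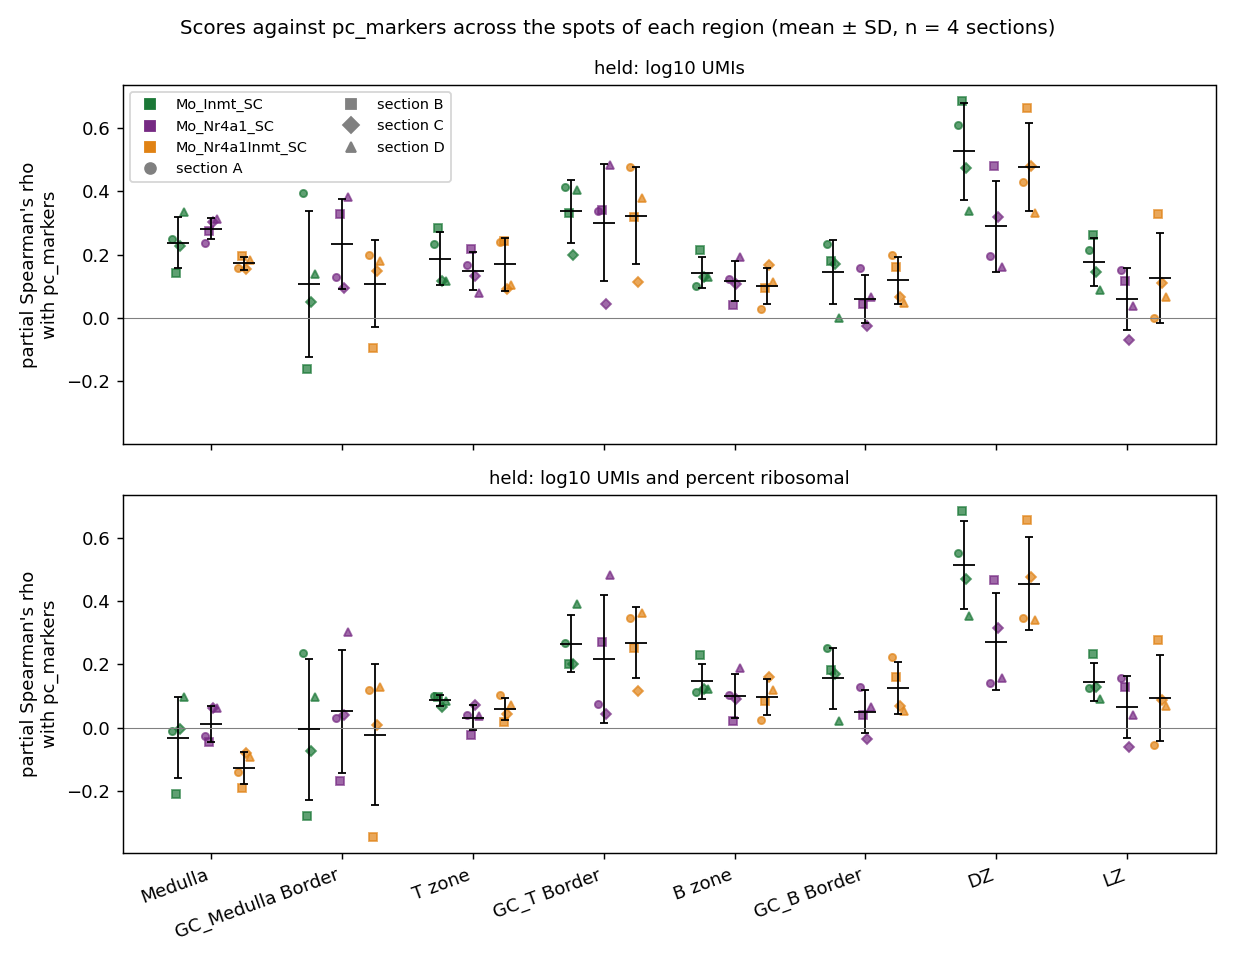
Partial Spearman's rho of each score with pc_markers across the spots of each region, with log10 UMIs held (upper panel) or log10 UMIs and percent ribosomal held (lower panel). Points are the 4 sections and bars mean ± SD. In Medulla the values of about 0.2 to 0.3 in the upper panel lie near or below 0 in the lower one, while the DZ values stay above 0.

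Inside Medulla the 3 scores were weakly related to the position of the spot, and Mo_Nr4a1_SC least. Spearman's rho with steps from DZ or LZ was 0.178 ± 0.117 for Mo_Inmt_SC, 0.0773 ± 0.0514 for Mo_Nr4a1_SC and 0.238 ± 0.0830 for Mo_Nr4a1Inmt_SC. With steps from the tissue edge it was -0.137 ± 0.0866, -0.0404 ± 0.0428 and -0.149 ± 0.0433 in that order. No Medulla spot touched DZ or LZ, so the nearest lay 2 steps away. Spots 2 to 4 steps from DZ or LZ (near) were compared with those 10 or more steps away (far), and spots 1 to 2 steps from the tissue edge with those 5 or more steps inside. The edge was the nearest array position without a tissue mark. The 18 values of this course were tested over the 4 sections by flipping signs in an exact permutation test (two-sided), whose smallest possible p over 16 sign assignments is 0.125, or 0.15 after Benjamini-Hochberg adjustment over the 18. No value could reach 0.05. The number of sections sharing a direction is given as a description and adds no support beyond that p. In 15 of the 18 all 4 sections shared 1 direction, but the 18 come from the same spots and related scores. The 15 include the edge difference of Mo_Nr4a1_SC (0.00298, higher at the edge). They also include its edge slope with depth and steps from DZ or LZ in the fit (0.01005 SD units per step, rising inward).

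Mo_Inmt_SC averaged -0.00538, -0.00466, -0.00895 and -0.00729 in near spots of sections A to D, and 0.00380, 0.0135, 0.00132 and -0.00455 in far spots. Mo_Nr4a1_SC averaged 0.0219, 0.0247, 0.0141 and 0.00757 in near spots and 0.0248, 0.0321, 0.0152 and 0.0154 in far spots. Mo_Nr4a1Inmt_SC averaged -0.0140, -0.0120, -0.0193 and -0.0216 in near spots and -0.00480, 0.00609, -0.00691 and -0.0108 in far spots. Each section was lower near the germinal centre zones in all 3 scores, although the section means of near and far spots overlapped for Mo_Nr4a1_SC and did not for the other two. For Mo_Nr4a1_SC the shared direction depended on the measure. By medians and on residuals of log10 UMIs (-0.00365) its sections split 2 and 2, and in spots whose neighbours were all Medulla or GC_Medulla Border the difference was 9.43e-05, above 0 in 3 of 4. Nor did Mo_Nr4a1_SC rise steadily with distance, at 0.0190 ± 0.0106 at 3 steps, 0.0268 ± 0.00768 at 9 and 0.0197 ± 0.00937 at 12 or more. In sections A and C its mean at 12 or more steps (0.0205 and 0.0126) was below that of the near spots. The near minus far difference was -0.0101 ± 0.00635 for Mo_Inmt_SC, -0.00481 ± 0.00336 for Mo_Nr4a1_SC and -0.0126 ± 0.00390 for Mo_Nr4a1Inmt_SC (exact sign-flip permutation p = 0.125 each, 4 of 4 sections). In SD units these are -0.325 ± 0.198, -0.165 ± 0.116 and -0.464 ± 0.124. The score pc_markers ran the other way in the same spots, at 0.574 ± 0.103 SD units higher near DZ or LZ, in 4 of 4 sections. Mo_CD34_SC ran the same way as the 3 scores, at -0.536 ± 0.257 SD units near minus far, also in 4 of 4.

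Toward the tissue edge Mo_Inmt_SC and Mo_Nr4a1Inmt_SC were higher, and Mo_Nr4a1_SC less evenly so. Edge spots averaged 0.00198, 0.00981, -0.00129 and -0.00285 for Mo_Inmt_SC in sections A to D, and inside spots -0.00362, -0.00509, -0.00905 and -0.00676. The edge minus inside difference was 0.00804 ± 0.00483 for Mo_Inmt_SC, 0.00298 ± 0.00196 for Mo_Nr4a1_SC and 0.00793 ± 0.00308 for Mo_Nr4a1Inmt_SC (exact sign-flip permutation p = 0.125 each, 4 of 4 sections). With the outermost spots alone set against those 4 or more steps inside, the value of Mo_Nr4a1_SC was 0.000633 with 2 sections on each side of 0, and by medians or ranks 3 of 4 sections were above 0. Mo_CD34_SC was also higher at the edge, by 0.431 ± 0.170 SD units in 4 of 4 sections. The score pc_markers had no common direction by this measure, at -0.0172 ± 0.121 SD units with 2 sections on each side of 0. Steps from DZ or LZ and steps from the edge were themselves related across Medulla spots, with a rho of -0.412 ± 0.0913.

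A linear fit of each score in SD units on both distances and log10 UMIs separated them. Per step away from DZ or LZ the slope was 0.0355 ± 0.0212 for Mo_Inmt_SC, 0.0257 ± 0.00833 for Mo_Nr4a1_SC and 0.0518 ± 0.0196 for Mo_Nr4a1Inmt_SC, above 0 in 4 of 4 sections. Per step away from the edge it was -0.0223 ± 0.00954 for Mo_Inmt_SC and -0.0171 ± 0.00801 for Mo_Nr4a1Inmt_SC, below 0 in 4 of 4 sections, but 0.01005 ± 0.00270 for Mo_Nr4a1_SC, above 0 in 4 of 4. That sign of Mo_Nr4a1_SC depended on depth, since the slope was -0.00411 without log10 UMIs in the fit. Medulla spots near the edge held more UMIs in 3 of 4 sections, with a mean over sections of 4792 at the edge and 3907 inside.

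The differences between the courses were tested in the same way. The near minus far difference of Mo_Nr4a1Inmt_SC minus that of Mo_Nr4a1_SC was -0.299 ± 0.127 SD units, and the same for edge minus inside was 0.189 ± 0.125 (exact sign-flip permutation p = 0.125 each, 4 of 4 sections). Against Mo_Inmt_SC the near minus far value was -0.140 ± 0.132 (exact permutation p = 0.125, 4 of 4 sections), where section D carried much of the mean and the value without it was -0.0763. Mo_Nr4a1_SC minus Mo_Inmt_SC was 0.160 ± 0.233 by steps from DZ or LZ and -0.157 ± 0.157 by edge (exact permutation p = 0.25 each). Section D went against the other 3 sections in both, and without it the values were 0.273 and -0.225. The course of Mo_Nr4a1Inmt_SC by steps from DZ or LZ was thus the steepest of the 3 in SD units over the whole Medulla, but not in the lower tissue piece taken alone. There the value against Mo_Inmt_SC was 0.117, above 0 in 4 of 4 sections, and that against Mo_Nr4a1_SC was -0.0155, with 2 sections on each side of 0. The remaining difference, Mo_Nr4a1Inmt_SC minus Mo_Inmt_SC by edge, was 0.0327 ± 0.0768 (exact permutation p = 0.375, 3 of 4 sections).

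**Figure D4:**
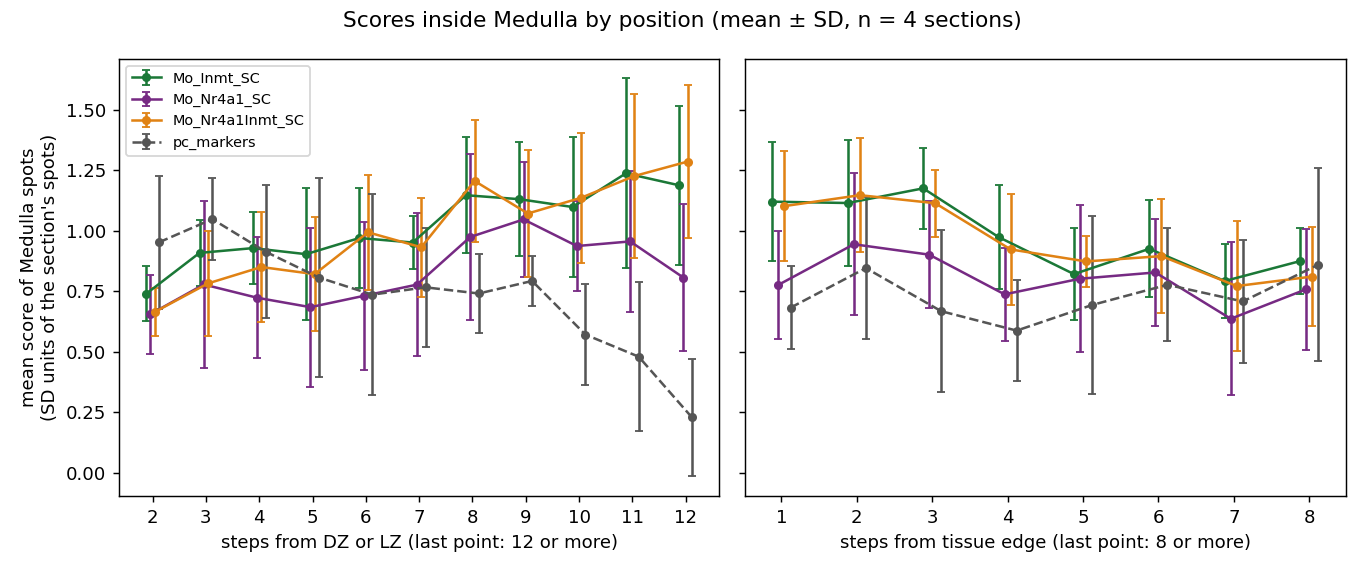
Mean of the 3 scores and of pc_markers over Medulla spots, in SD units of the section's spots, by steps from DZ or LZ (left) and from the tissue edge (right), with bars for SD over 4 sections. Mo_Inmt_SC and Mo_Nr4a1Inmt_SC are higher far from DZ or LZ and near the edge, Mo_Nr4a1_SC less so, and pc_markers is lower far from DZ or LZ.

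The percent of mitochondrial counts moved with the same positions. It was 4.68% ± 0.555 near DZ or LZ and 6.96% ± 0.589 far away, and 6.87% ± 0.665 at the edge and 4.74% ± 0.552 inside. With each score replaced by its residual from a linear fit on log10 UMIs and percent mitochondrial over all spots of the section, the near minus far difference was 0.00190 for Mo_Inmt_SC, 0.00315 for Mo_Nr4a1_SC and -0.000107 for Mo_Nr4a1Inmt_SC, with 2 sections on each side of 0 in each. The edge minus inside difference became 0.00418, -0.000142 and 0.00223. With percent ribosomal in place of percent mitochondrial, the near minus far differences were -0.00972, -0.00449 and -0.0119 and the edge minus inside differences 0.0155, 0.00730 and 0.0138, close to the 0.0148, 0.00650 and 0.0132 with log10 UMIs alone. These fits take their slope from all spots, so differences between regions enter it. Within Medulla the partial rho of percent mitochondrial given log10 UMIs was 0.000855 ± 0.1002 for Mo_Inmt_SC, 0.0777 ± 0.0825 for Mo_Nr4a1Inmt_SC and -0.0836 ± 0.0439 for Mo_Nr4a1_SC, below 0 in 4 of 4 sections for the last. With log10 UMIs and percent mitochondrial fitted over the Medulla spots alone, the near minus far differences were -0.0103 ± 0.00360, -0.00781 ± 0.00192 and -0.0105 ± 0.00276 for Mo_Inmt_SC, Mo_Nr4a1_SC and Mo_Nr4a1Inmt_SC. The edge minus inside differences were 0.00750 ± 0.00330, 0.00403 ± 0.00144 and 0.00516 ± 0.00190. All 6 had the direction of the deposited scores in 4 of 4 sections. The near minus far course thus lost its shared direction when percent mitochondrial was fitted across regions, and the edge difference of Mo_Nr4a1_SC changed sign. The edge differences of Mo_Inmt_SC and Mo_Nr4a1Inmt_SC kept their sign there but were smaller than with log10 UMIs alone. Both courses were kept when percent mitochondrial was fitted inside Medulla. All fits with a mitochondrial or ribosomal percent were added after the values were seen.

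Both tissue pieces showed the course in Mo_Nr4a1Inmt_SC, with near minus far differences of -0.0129 ± 0.00613 in the upper and -0.00932 ± 0.00557 in the lower piece, each below 0 in 4 of 4 sections. Mo_Inmt_SC gave -0.0112 ± 0.00826 and -0.0143 ± 0.00716, again in 4 of 4. Mo_Nr4a1_SC gave -0.00509 ± 0.00545 and -0.00970 ± 0.0117, below 0 in 3 of 4 sections in each piece. Its edge minus inside difference was -0.000207 ± 0.00318 in the upper piece and 0.00853 ± 0.00715 in the lower, so the edge value of Mo_Nr4a1_SC rested on the lower piece. For Mo_Inmt_SC that difference was 0.00786 ± 0.00721 in the upper piece, above 0 in 3 of 4 sections, and 0.00907 ± 0.00443 in the lower, in 4 of 4. Mo_Nr4a1Inmt_SC gave 0.00693 ± 0.00526 and 0.00949 ± 0.00324, each in 4 of 4, with 0.000559 in section D of the upper piece.

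When the Medulla was divided by both distances, the highest means of Mo_Inmt_SC and Mo_Nr4a1Inmt_SC lay 10 or more steps from DZ or LZ and up to 4 steps from the edge. Mo_Nr4a1Inmt_SC was 1.25 ± 0.301 SD units at 1 to 2 steps from the edge there and 0.682 ± 0.151 in spots 2 to 4 steps from DZ or LZ and 5 or more steps inside. Mo_Inmt_SC was 1.18 ± 0.361 and 0.789 ± 0.107 in the same places. Mo_Nr4a1_SC was 0.927 ± 0.262 and 0.709 ± 0.255, a difference of the size of the spread between sections. The deep spots far from DZ or LZ were few, with 93 over all sections and 11 in the smallest.

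B zone, GC_B Border and LZ also reach the edge, with 66.5, 37.9 and 22.2% of their spots at 1 to 2 steps from it against 29.2% in Medulla. The Medulla was compared with the B zone, which reaches it most. In B zone spots the edge minus inside difference was -0.00646 ± 0.00349 for Mo_Inmt_SC and -0.00350 ± 0.00299 for Mo_Nr4a1_SC, below 0 in 4 of 4 sections, against the positive differences in Medulla. For Mo_Nr4a1Inmt_SC it was 0.000532 ± 0.00256, with 2 sections on each side of 0. The inside B zone spots numbered 72 in all and 11 in the smallest section. In GC_B Border the difference was -0.00608 ± 0.00168 for Mo_Inmt_SC and -0.00343 ± 0.00174 for Mo_Nr4a1Inmt_SC, below 0 in 4 of 4 sections, and -0.00572 ± 0.005001 for Mo_Nr4a1_SC, below 0 in 3 of 4. The Medulla minus B zone difference of these differences was 0.0145 ± 0.00210, 0.00648 ± 0.00351 and 0.00740 ± 0.00313 for the 3 scores in that order (exact sign-flip permutation p = 0.125 each, 4 of 4 sections). Depth moved with the edge as well, and B zone spots had a median of 8569 UMIs at the edge and 5303.5 inside. On residuals of log10 UMIs fitted over all spots, the B zone difference was 0.00248 ± 0.00369 for Mo_Inmt_SC and 0.00171 ± 0.00383 for Mo_Nr4a1_SC, above 0 in 3 of 4 sections. With the fit over B zone spots alone it was -0.00516 ± 0.00217 and -0.00470 ± 0.00351, below 0 in 4 of 4. The sign in the B zone thus depended on how depth was fitted. The Medulla minus B zone difference stayed above 0 in 4 of 4 sections under both fits for Mo_Inmt_SC (0.0124 and 0.0132) and Mo_Nr4a1_SC (0.00479 and 0.00603), and for Mo_Nr4a1Inmt_SC in 3 of 4 (0.00553) and 4 of 4 (0.00685). Both depth fits were added after the values were seen.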

How the data were processed

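Visium libraries of 4 lymph node sections were made with 18 min of permeabilization and 16 cycles of PCR, per the labels' protocols. Space Ranger 1.3.1, Seurat 4.2.1 and the build mm10 are named in the submitters' processing notes. The authors deposited a table with 1 line per spot holding counts (UMIs and genes), the percent of mitochondrial and ribosomal counts, 6 scores, a region name and the array position. The unit of the scores, their gene lists and their method are not stated by the labels or the file headers. Counts and percents were used as deposited, and the scores as deposited or in SD units. The alignment files mark 20, 33, 38 and 29 further spots of sections A to D as tissue, which were not used here, and no other spot was left out. Single genes were not analysed here.

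For each section, region means, Spearman's rho (partial rho from rank residuals), hexagonal step distances and linear slopes were computed with Python 3.11.15, numpy 2.4.6, pandas 2.3.3 and scipy 1.17.1, and figures with matplotlib 3.10.9. The section was the unit (n = 4) and spots were never replicates. The sections may come from the same animal, so their agreement is not replication between animals. The exact sign-flip permutation test was applied to the course inside Medulla (18 values, adjusted together) and, unadjusted, to the comparison of its edge with that of B zone. The functions were tested on simulated data. Alternatives were medians, percentile ranks, leaving out spots under 1000 UMIs, residuals on depth and on quality measures, other step limits, single tissue pieces, and each section left out in turn. The rule for names was to name the 3 scores throughout and the other scores for reference. The scores and tests were chosen with earlier results of these data known.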

Additional observations from a re-analysis of the deposited data

Results flagged for a closer look

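For Mo_Nr4a1Inmt_SC in GC_Medulla Border, the excess over the rest of the section was 0.0113 in section B, far from the other 3 sections, which lay between 0.00566 and 0.00606. The rho between Mo_Nr4a1_SC and Mo_Inmt_SC inside B zone was 0.214 in section A, against 0.176 to 0.180 in the others. Among 93 sets of 4 section values that were checked, these 2 had a section standing apart, and chance alone gives about 1 in 20.

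The edge minus inside difference of Mo_Inmt_SC was above 0 in every section in Medulla and below 0 in every section in B zone, and the difference between the regions was 0.0145. For Mo_Nr4a1_SC the same held with a difference of 0.00648. The exact sign-flip permutation test gave p = 0.125 for each, the smallest that 4 sections allow.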

How the results depend on the processing

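Over 1128 alternative values of 117 results, 1029 kept their direction, or had sections that shared none, and, where no test was run, moved by less than 1 SD of the sections. A further 66 moved by more and 33 changed direction. In an untested result a change of direction was counted only where all 4 sections had shared one. Apart from the 33, 19 values changed sign in results whose sections were divided. None of the 468 that left out a section is among the 66 or the 33, but 7 of them, in 4 score differences by region, are among the 19. The course inside Medulla changed most with percent mitochondrial fitted over all spots (added after seeing the data, as were all other mitochondrial-only, ribosomal-only, neighbour and step settings). With log10 UMIs and percent mitochondrial taken out, the near minus far difference was 0.00190 for Mo_Inmt_SC and 0.00315 for Mo_Nr4a1_SC, and the edge difference of Mo_Nr4a1_SC was -0.000142. With percent ribosomal taken out too, the 3 near minus far differences were 0.00284, 0.00417 and 0.000702, and the edge difference of Mo_Nr4a1_SC was -0.00115. Mo_Nr4a1_SC near minus far was 9.43e-05 in spots with Medulla-side neighbours alone, its edge difference -0.000207 in the upper piece, and its edge slope -0.00411 without log10 UMIs. Mo_Nr4a1Inmt_SC minus Mo_Inmt_SC was 0.117 by steps from DZ or LZ in the lower piece. By edge it was -0.000128, -0.0633, -0.0121 and -0.0686 with UMIs, UMIs and mitochondrial, UMIs and ribosomal, and all of these taken out, and -0.0532 with UMIs and mitochondrial taken out within Medulla. The excess of Medulla over other spots was 0.0270, 0.0236 and 0.0240 on residuals of log10 UMIs. The B zone difference from other spots became 0.00253 for Mo_Inmt_SC and 0.00428 for Mo_Nr4a1Inmt_SC on those residuals, and 0.000383 for the latter by medians. Partial rho with pc_markers in Medulla, for Mo_Inmt_SC, Mo_Nr4a1_SC and Mo_Nr4a1Inmt_SC, was -0.00549, 0.0235 and -0.0864 with both percents held, -0.0326, 0.0120 and -0.127 with ribosomal held, and -0.0151, 0.0431 and -0.111 with ribosomal held and neighbours' scores. For Mo_Nr4a1Inmt_SC it was 0.113 with Mo_CD34_SC held, 0.218 with mitochondrial held and 0.235 with steps held. With Mo_CD34_SC held, Mo_Nr4a1Inmt_SC gave -0.0558 in B zone, -0.0798 in GC_B Border and -0.0175 in LZ, and Mo_Inmt_SC -0.0270 in GC_B Border. With neighbours' scores and ribosomal held, GC_T Border gave -0.0435 for Mo_Inmt_SC and -0.0153 for Mo_Nr4a1Inmt_SC, and GC_Medulla Border -0.0592 for Mo_Nr4a1_SC. LZ gave -0.0191 for Mo_Nr4a1Inmt_SC with neighbours' scores. The cause of these changes was not tested. Median UMIs per spot were lowest in sections C and D, and the part of depth in their scores was not tested. All sections belong to 1 group, so no groups could be compared, and the tested differences were formed within each section.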
